A study of Mus musculus with 12 samples.

Results

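The genes described here are apolipoproteins and proteins that load, remodel or clear lipoproteins, measured in the livers of adult male mice. They were chosen by gene symbol: of 9 listed, 8 (Apob, Mttp, Apoa1, Apoc3, Apoa4, Apoa5, Apoe and Angptl8) had a probe set annotated with that symbol among the 22206 on the array, 1 each, and Lipc was not analysed here. The 12 mice were C57BL/6J males of 4 to 5 months kept at 23 °C on chow, and each gave 1 array of total liver RNA. Arrays 7 to 12 came from 6 offspring of dams lacking UCP1, the brown fat protein that turns fuel into heat (UCP1-KO dams), and arrays 1 to 6 from 6 offspring of WT dams. All 12 offspring are labelled heterozygous for Ucp1 and had heterozygous sires, so the groups differ in the mother's genotype, and with it in which parent passed on the allele lacking Ucp1. Because no dam or litter is labelled, some of these mice may be littermates, and p-values then cover their spread only.

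The liver packages triglyceride and cholesterol into very low density lipoprotein. Each particle is built on 1 molecule of apolipoprotein B, which the transfer protein MTP (gene Mttp) loads with lipid. In plasma, lipoprotein lipase removes the triglyceride, helped by apolipoprotein A-V and held back by apolipoprotein C-III and by ANGPTL8, a hormone-like protein whose gene is switched on by feeding. Apolipoprotein E guides the remnants to liver receptors, and apolipoprotein A-I is the scaffold of high density lipoprotein.

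Apoa1, Apoc3, Apoa4 and Apoa5 are direct neighbours on mouse chromosome 9, in that order, with 0 other annotated genes between them. The sequences below are the 250 bases before the annotated start of the 2 members with the widest range of signal, Angptl8 and Apoa4, and of Apoa5, the cluster neighbour with the most positive difference between the groups. They are RefSeq sequence of the build GRCm38.p6, all on the plus strand: chr9:46240594-46240843 for Apoa4, chr9:46268358-46268607 for the first of 2 starts of Apoa5, and chr9:21835260-21835509 for Angptl8. Capitals mark matches to 4 motifs searched on both strands, which did not overlap in these windows.
Apoa4: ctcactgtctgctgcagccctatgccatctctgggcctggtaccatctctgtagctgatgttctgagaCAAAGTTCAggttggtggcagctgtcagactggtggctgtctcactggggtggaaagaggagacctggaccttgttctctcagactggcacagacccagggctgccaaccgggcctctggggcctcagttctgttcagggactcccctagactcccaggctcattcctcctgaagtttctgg
Apoa5: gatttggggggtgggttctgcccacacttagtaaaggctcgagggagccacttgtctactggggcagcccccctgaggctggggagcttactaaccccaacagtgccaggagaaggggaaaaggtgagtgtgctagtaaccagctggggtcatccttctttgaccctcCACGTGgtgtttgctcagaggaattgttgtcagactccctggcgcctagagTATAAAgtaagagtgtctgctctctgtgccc
Angptl8: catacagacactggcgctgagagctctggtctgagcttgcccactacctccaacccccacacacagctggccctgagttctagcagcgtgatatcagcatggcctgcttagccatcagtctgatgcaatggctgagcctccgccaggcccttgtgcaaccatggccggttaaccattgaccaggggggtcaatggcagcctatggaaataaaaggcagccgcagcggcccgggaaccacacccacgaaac
The capitals in Apoa4 are a match to CAAAGNNCA, a form of the site read by the liver factor HNF4, at 182 to 174 bases before the start. Those in Apoa5 are the palindromic E-box CACGTG, at 82 to 77 bases, and the TATA box TATAAA, at 31 to 26 bases. Angptl8 held no match to these 3 motifs or to GTTAAT, a half-site of HNF1. Of 32851 windows of this length before RefSeq starts, 5.49% held CAAAGNNCA, 6.02% CACGTG, 12.4% TATAAA and 6.43% GTTAAT. A match is a run of letters and not a measured binding site, and its absence says nothing about the factor. Of the 9 listed genes, 8 are in the promoter table, and Apoc3 was not matched.

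Signals are the authors' log2 values, on which 1 unit is a doubling, and values of different probe sets are not levels that can be set against each other. Across all probe sets, which are not independent, Pearson's r between arrays was 0.985 to 0.992. The 5222 negative control probe sets had medians of 5.96 to 6.36 in offspring of UCP1-KO dams and 6.14 to 6.62 in offspring of WT dams (exact two-sided permutation p = 0.119), and each of the 8 genes averaged at least 5.23 above them. All 7 hepatocyte markers fixed for the tissue check, Alb and Ttr among them, lay at 17.58 to 19.69. Of 6 markers of intestinal epithelium, the other main site of apolipoprotein synthesis, 4 were below the negative controls, and Fabp2, which the liver also makes, reached 12.17. Markers of Kupffer cells (6 measured), stellate cells (6), bile duct cells (5) and B and T cells (5) had 0 members with a limma p under 0.05 before adjustment, a threshold met by 13.1% of all probe sets. All 5 B and T cell markers, 3 of the 5 bile duct markers and 1 of the 6 stellate markers averaged below the negative controls. The count of 0 therefore says little about B and T cells and bile duct cells. Sinusoidal endothelium had 4 of 6 members under this threshold (Stab2, Dnase1l3, Gpr182 and Lyve1, with log2 differences of -0.74, -0.52, -0.41 and 0.94). Adipocytes had 2 of 6 (Plin1 and Cidea) and red cells 1 of 2. Of the 6 adipocyte markers, 5 averaged below the negative controls, Plin1 and Cidea among them. After adjustment 0 markers passed, and their part in the results below was not tested. In whole liver, fewer cells of a type and less RNA per cell cannot be told apart.

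None of the 8 genes passed the test for a difference between the groups. Their log2 differences, taken as the UCP1-KO-dam mean less the WT-dam mean, ran from -0.31 for Apoc3 to 0.30 for Apoa5, with a median of 0.086 against 0.034 over all probe sets. A gene was called when limma's p, adjusted over all 22206 probe sets by Benjamini-Hochberg, was under 0.05. By this rule 0 of the 8 genes passed (adjusted p = 0.443 to 0.925), beside 0.036% of all probe sets, and 0 had an unadjusted p under 0.05, beside 13.1% of all. The unequal-variance test per probe set also called 0, and exact two-sided permutation tests of the 8 differences in means gave p = 0.108 to 0.801, unadjusted. The groups overlapped for all 8 genes, where 1.05% of all probe sets had groups that did not. With 8 genes, these shares do not tell the list from the rest of the array.

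**Figure D1:**
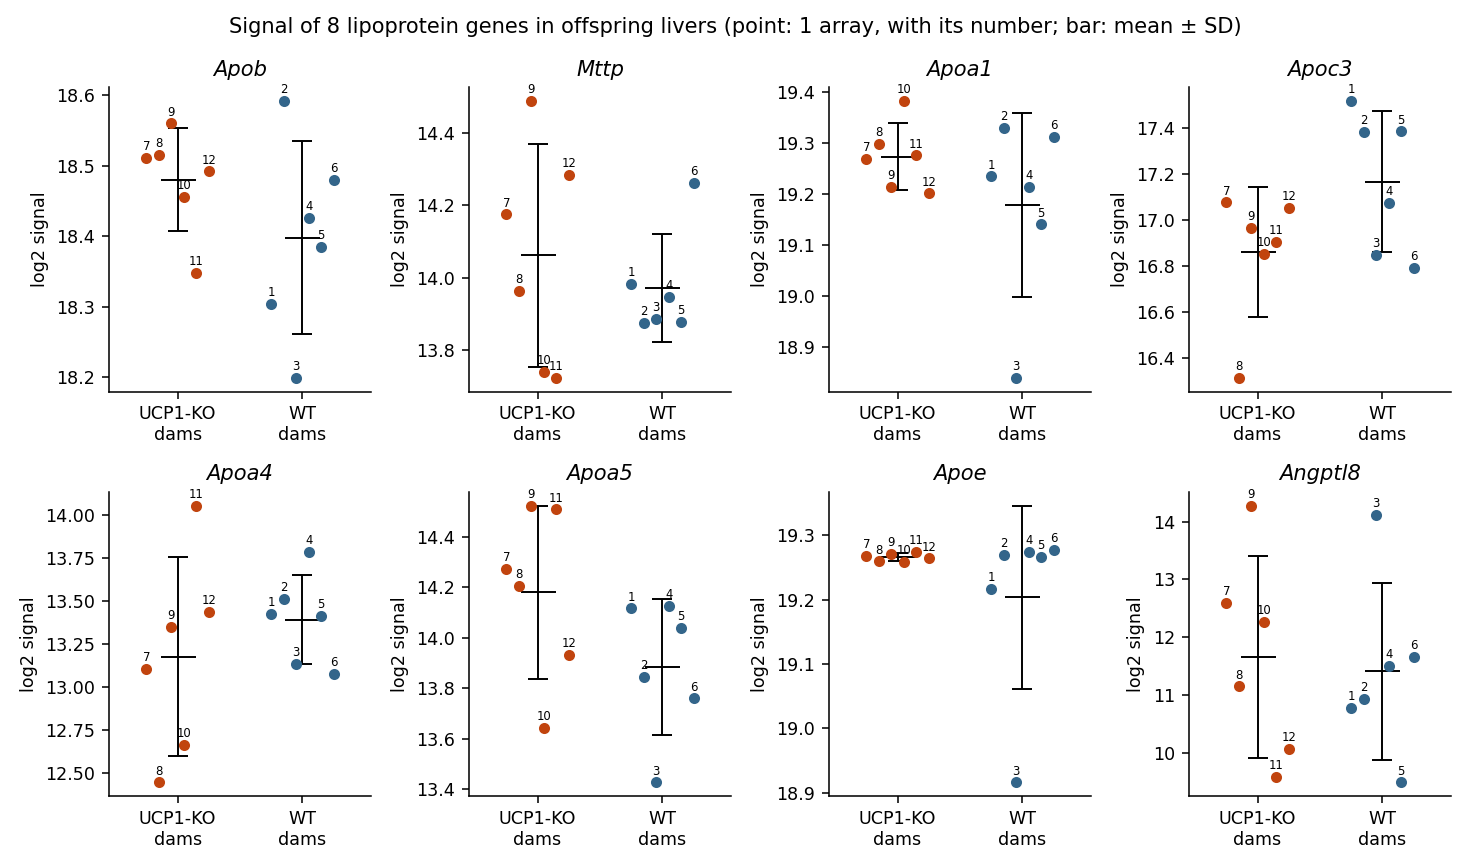
Log2 signal (vertical axes, a separate scale per gene) of the 8 lipoprotein genes on each array. Points are single livers with their array number, offspring of UCP1-KO dams on the left and of WT dams on the right, and bars are mean ± SD. The groups overlap in every panel, array 3 is lowest for Apob, Apoa1, Apoa5 and Apoe, and Angptl8 spans 4.78 log2 units.

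Apob and Mttp, which make the particle, had group means less than 0.1 log2 units apart. Apob read 18.35, 18.50 and 18.56 (lowest, median and highest) in offspring of UCP1-KO dams, against 18.20, 18.41 and 18.59 in offspring of WT dams. The first range lay inside the second. The log2 difference was 0.083 (95% interval -0.16 to 0.32, limma adjusted p = 0.803), so the interval for signal ran from 0.897-fold to 1.25-fold, and the estimate was 0.043 without WT-dam array 3.

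Mttp, which encodes the lipid-transferring subunit of MTP, read 13.72, 14.07 and 14.49 in offspring of UCP1-KO dams and 13.87, 13.92 and 14.26 in offspring of WT dams. UCP1-KO-dam array 9 was the highest and arrays 11 and 10 the lowest of all 12, so the wider spread was in that group (SD 0.31 against 0.15, n = 6 each). The 2 means differed by 0.090 (log2, 95% interval -0.22 to 0.40, limma adjusted p = 0.840), which was 0.0049 without array 9 and 0.16 without array 11.

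Among the cluster genes, Apoc3 and Apoa5, whose proteins have opposite effects on lipoprotein lipase, had differences of opposite sign, neither past the test. Apoc3 read 16.31, 16.94 and 17.08 in offspring of UCP1-KO dams and 16.79, 17.23 and 17.52 in offspring of WT dams. WT-dam arrays 1, 2 and 5, at 17.38 to 17.52, lay above every array of the other group, and UCP1-KO-dam array 8 lay below all others. The log2 difference was -0.31 (95% interval -0.65 to 0.039, limma adjusted p = 0.443), which was -0.20 without array 8. It was -0.59 when WT-dam arrays 3 to 6, the 4 with the brightest negative controls, were left out (adjusted p = 0.662). That setting keeps only arrays 1 and 2 of the WT-dam group, which for Apoc3 both lay above every array of the other group.

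Apoa5 read 13.64, 14.24 and 14.52 in offspring of UCP1-KO dams, against 13.43, 13.94 and 14.13 in offspring of WT dams. On 4 UCP1-KO-dam arrays (7, 8, 9 and 11) it lay above all 6 WT-dam arrays, while array 10 was the second lowest of the 12. Its log2 difference was 0.30 (95% interval -0.060 to 0.65, limma adjusted p = 0.473), and 0.15 with the median negative control as a covariate. With single arrays left out it ran from 0.20 without WT-dam array 3 to 0.40 without UCP1-KO-dam array 10. Both intervals include 0, and the difference between the 2 genes was not tested.

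Apoa4, a lipid-binding apolipoprotein of triglyceride-rich particles and high density lipoprotein, varied most among the cluster genes. Its signal was 12.45, 13.23 and 14.05 in offspring of UCP1-KO dams, where the lowest arrays were 8 and 10 and the highest was 11, against 13.08, 13.42 and 13.79 in offspring of WT dams. The lowest and the highest liver of all 12 were thus in the first group (SD 0.58 against 0.26, n = 6 each). The group means differed by -0.22 (log2, 95% interval -0.68 to 0.25, limma adjusted p = 0.718), which was -0.070 without array 8, -0.11 without array 10, -0.14 without WT-dam array 4 and -0.39 without array 11. Apoa1 read 19.20, 19.27 and 19.38 in offspring of UCP1-KO dams and 18.84, 19.22 and 19.33 in offspring of WT dams, where array 3 alone was under 19. Its log2 difference was 0.095 (95% interval -0.16 to 0.35, limma adjusted p = 0.779), 0.027 without array 3 and -0.0086 without WT-dam arrays 3 to 6.

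Apoe gave almost 1 value on 11 of the 12 arrays. It read 19.26, 19.27 and 19.27 in offspring of UCP1-KO dams, with an SD of 0.0063 (n = 6), and 18.92, 19.27 and 19.28 in offspring of WT dams (SD 0.14, n = 6). Array 3 held the 18.92, and the other 11 lay within 0.061 log2 units. The SD over those 11 arrays, 0.017, was the smallest of all 22206 probe sets on the same arrays. Leaving out array 3 removed the lowest value of Apoe itself. Over all 12 arrays its SD within groups was 0.10, and 0.446% of all probe sets had a smaller one. The log2 difference was 0.062 (95% interval -0.17 to 0.30, limma adjusted p = 0.861) and 0.0049 without array 3.

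**Figure D2:**
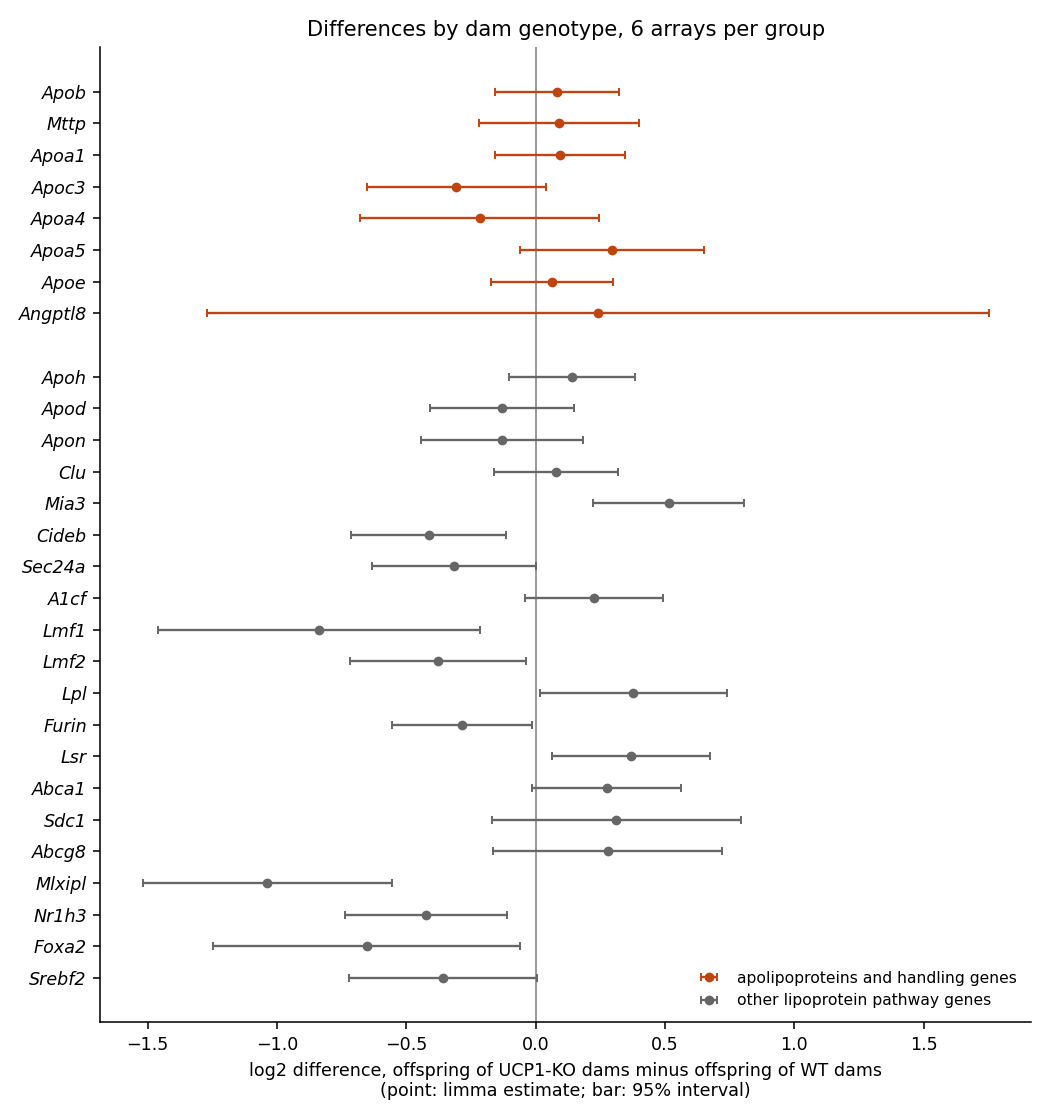
Log2 difference between offspring of UCP1-KO dams and offspring of WT dams (horizontal axis) for the 8 genes and 20 named genes of the wider pathway, points with 95% intervals from limma, 6 arrays per group. All 8 intervals include 0, and that of Angptl8, -1.27 to 1.75, is the widest.

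The flat signals of Apoe, Apoa1 and Apob went with their place at the top of the signal range. The brightest probe set of each array read 19.67 to 19.72 in offspring of UCP1-KO dams and 19.25 to 19.69 in offspring of WT dams. Apoe ranked 11, Apoa1 12, Apob 50 and Apoc3 152 by mean signal among the 22206 probe sets, and Apoe and Apoa1 averaged 0.41 and 0.42 below the mean array maximum. The median SD within groups was 0.25 for probe sets with a mean of 12 to 14, 0.21 at 16 to 17, 0.16 at 17 to 18, 0.12 at 18 to 19 and 0.11 for the 23 above 19. The median absolute log2 difference between the groups likewise was 0.19 at 12 to 14 and 0.042 above 19. Both values were thus smaller near the top, the range that holds the signals of these 3 genes. Whether their transcripts varied more than their signals was not tested. Mttp, Apoa4, Apoa5 and Angptl8 averaged 5.61 to 8.11 below the array maximum.

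WT-dam array 3 stood apart at the same end of the range. Its 20 brightest probe sets averaged 19.02, against 19.29 to 19.36 on the other 11 arrays. Of the 23 probe sets with a mean above 19, 21 were lowest on array 3, as were 11.4% of all probe sets. On it Apoa1 was 0.42, Apoe 0.35 and Apob 0.26 below the mean of the other arrays. Apoa5, with a mean signal of 14.03, was 0.66 below and also lowest there, while Mttp, Apoc3 and Apoa4 were not.

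**Figure D3:**
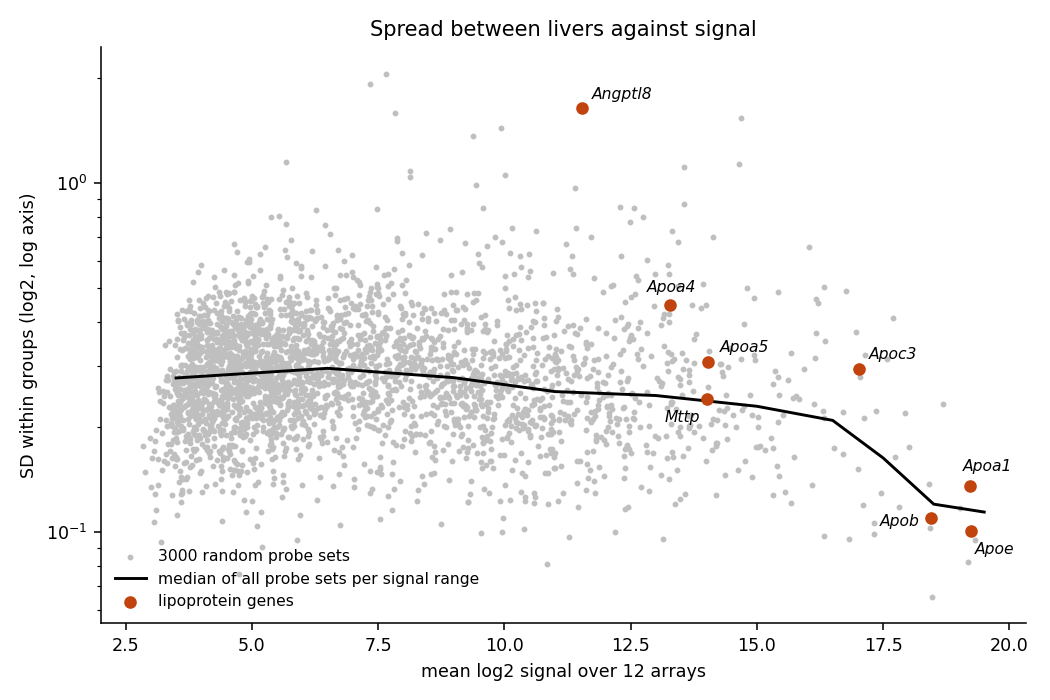
SD within groups (vertical log axis, log2 units) against mean log2 signal over 12 arrays. Grey points are 3000 random probe sets, the line joins the medians of all probe sets per signal range, and the 8 lipoprotein genes are marked. The line drops above a signal of about 16, where Apob, Apoa1, Apoe and Apoc3 lie. Apoc3 lies above the line (SD 0.29), and Angptl8 lies far above it.

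Angptl8, the feeding-responsive inhibitor, had the widest spread of the 8 genes. It read 9.58, 11.71 and 14.27 in offspring of UCP1-KO dams and 9.49, 11.22 and 14.11 in offspring of WT dams. Array 9 of the first group and array 3 of the second were high, and each group also held a liver under 9.6 (arrays 11 and 5). The range of 4.78 log2 units lay across both groups, and the SD within groups, 1.64, was larger than that of 99.9% of all probe sets. The log2 difference was 0.24 (95% interval -1.27 to 1.75, 0.415-fold to 3.37-fold, limma adjusted p = 0.925). It turned to -0.28 without array 9 and -0.14 without array 5, and was 0.78 without array 3, 0.66 without array 11, 0.56 without array 12, 0.14 without array 2, 0.12 without array 1 or array 10 and 0.053 without array 7. The labels do not give the feeding state or the time of day at which livers were taken.

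No pair of the 8 genes had correlated signals after adjustment. Over the 12 arrays and 28 pairs, Pearson's r ran from -0.49 to 0.87, and 0 pairs passed a permutation test adjusted by Benjamini-Hochberg (adjusted p = 0.181 to 0.995). The highest r was that of Apoa1 and Apoe at 0.87 (permutation p = 0.0377, adjusted p = 0.264), with a Spearman's rho of 0.23 (permutation p = 0.469, adjusted p = 0.736). This rested on array 3: r was 0.054 without it and 0.14 without the 2 arrays farthest from the median of Apoa1, 3 and 10. Apob and Apoe had r = 0.72 (permutation p = 0.00646, adjusted p = 0.181) and rho = 0.33 (permutation p = 0.296), with r = 0.51 without array 3 and -0.13 without arrays 1 and 3. When each array was centred on its median this pair passed (r = 0.69, permutation adjusted p = 0.0496), the only pair to do so under any setting run. The neighbours Apoc3 and Apoa4 had r = 0.58 (permutation p = 0.0488, adjusted p = 0.273) and rho = 0.55 (permutation p = 0.0651), 0.28 without array 8 and 0.31 without arrays 1 and 8.

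**Figure D4:**
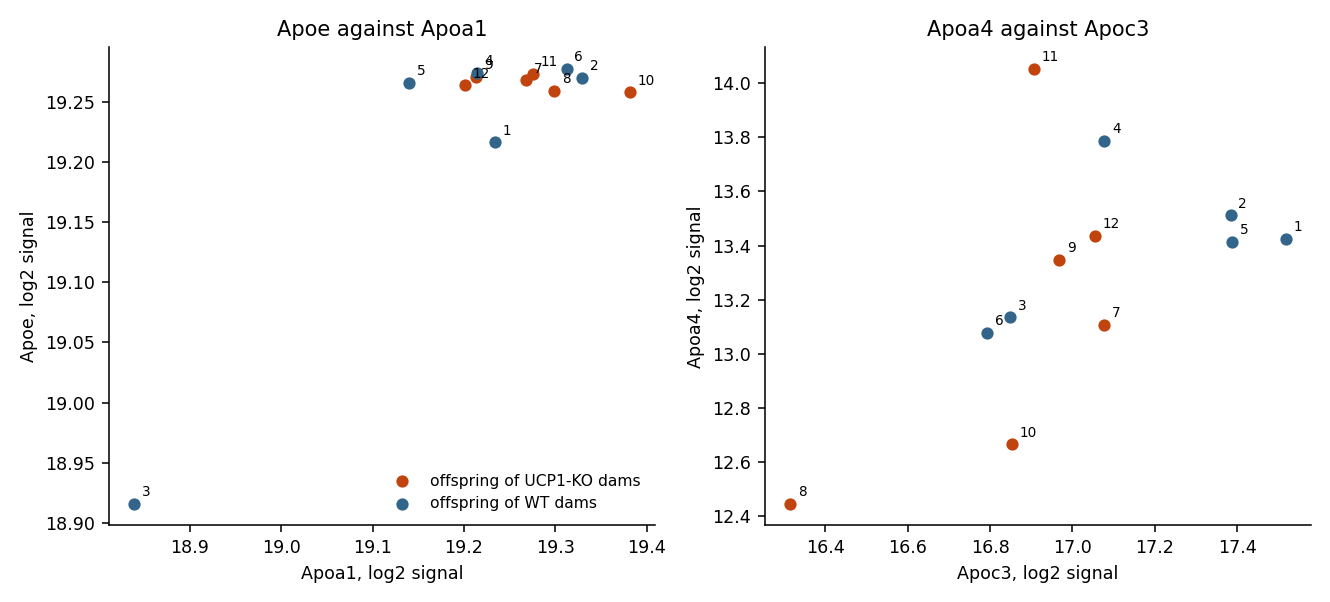
Log2 signals of Apoe against Apoa1 (left) and of Apoa4 against Apoc3 (right), 1 point per array with its number, offspring of UCP1-KO dams in orange and of WT dams in blue. In the left panel array 3 alone sits at 18.84 and 18.92 and the other 11 arrays form a flat row; in the right panel array 8 is low for both genes.

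For the 3 genes with the widest range, the most similar profiles over the 12 arrays were looked up among 9832 named probe sets brighter than the negative controls. They are a description with no test, since they were picked as the highest of that many, and the arrays share their normalization. Angptl8 was matched best by Naa16, a subunit of a protein N-acetyltransferase (Pearson's r = 0.90), Ccn1, a matrix protein (0.90), and Nr2c2ap (0.87). Without arrays 3 and 9 these were 0.76, 0.72 and 0.77. Apoc3 was matched best by Higd2a, a mitochondrial respiratory chain protein (0.95), and by the ATP synthase subunit genes Atp5g1 (0.94) and Atp5d (0.93), with 0.87, 0.83 and 0.91 without arrays 1 and 8. Apoa4 was matched best by Aldh9a1, an aldehyde dehydrogenase (0.89), Rasgrp2, an exchange factor for Ras-like proteins (0.84), and Idh3b, of the citrate cycle (0.81), with 0.80, 0.64 and 0.55 without arrays 8 and 10. None of the 9 belongs to the lipoprotein lists.

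**Figure D5:**
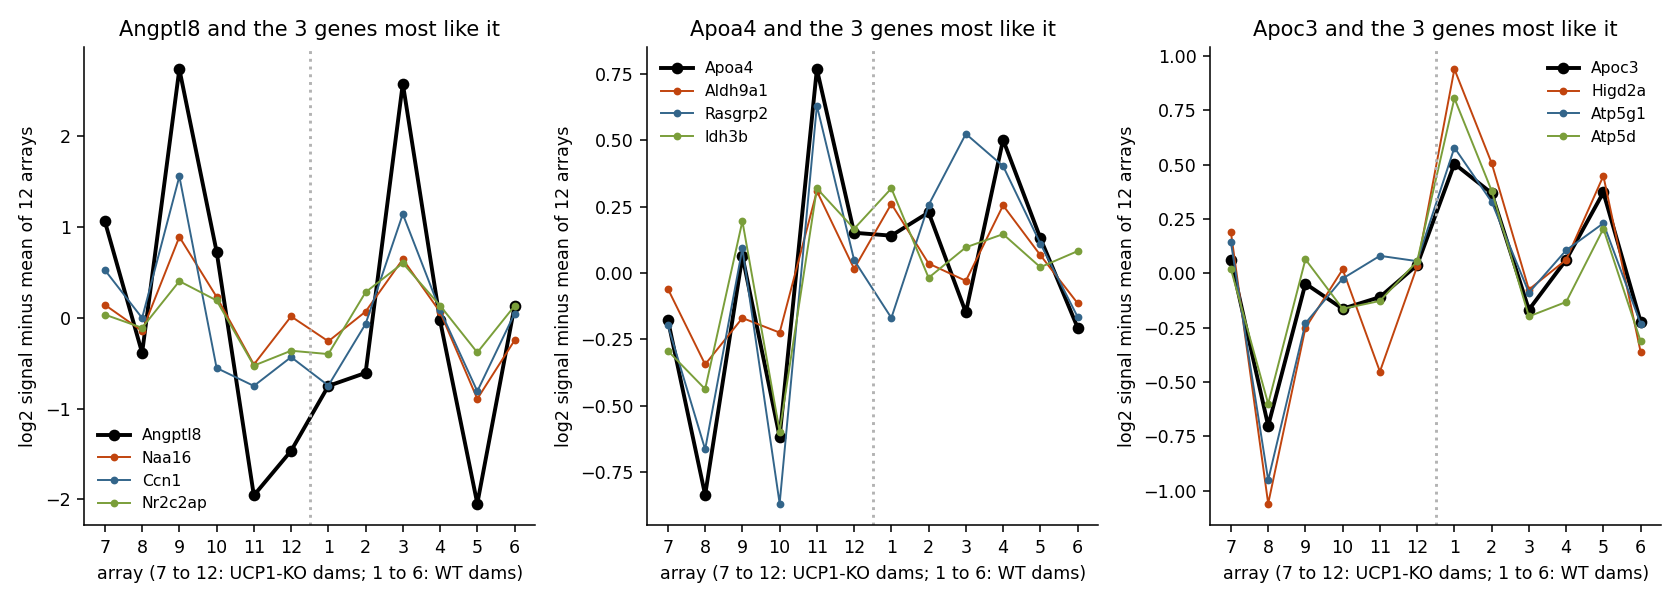
Log2 signal minus the mean of 12 arrays (vertical axis) for Angptl8, Apoa4 and Apoc3 (black) and the 3 genes most like each (colours), by array, offspring of UCP1-KO dams left of the dotted line and of WT dams right of it. Angptl8 peaks on array 9 and array 3, 1 in each group, Apoa4 peaks on array 11, and Apoc3 is lowest on array 8.

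The wider lipoprotein pathway gave the same count. Of 75 further genes listed by role, 67 were measured and 8 were not analysed here. By limma's adjusted p 0 passed (lowest 0.0891), 34 lay above 0 and 33 below, and the median log2 difference was 0.016, against 0.034 over all probe sets. At an unadjusted p under 0.05 there were 10, or 14.9%, close to the 13.1% of all probe sets, and 3 of them were above 0 and 7 below. Groups that did not overlap were found for 0 of the 67.

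Of 10 other apolipoproteins, 0 had an unadjusted p under 0.05, beside 13.1% of all probe sets. The lowest p was that of Apoh, the plasma glycoprotein apolipoprotein H, with 18.79 ± 0.10 in offspring of UCP1-KO dams and 18.65 ± 0.14 in offspring of WT dams (SD, n = 6 each, limma adjusted p = 0.646), followed by Apod with a log2 difference of -0.13, Apon with -0.13 and Clu, apolipoprotein J, with 0.079. Apod, at 4.72 and 4.85, lay below the negative controls in both groups, and Apoh and Clu had signals in the upper range described above. Single arrays moved these differences, Apoh to 0.089 and Clu to 0.029 without WT-dam array 3, Clu to 0.12 and Apod to -0.048 without WT-dam array 2, Apod to -0.085 without UCP1-KO-dam array 11 and Apon to -0.20 without WT-dam array 6. Apon had -0.016 when UCP1-KO-dam array 9 was left out.

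Of 16 genes for assembly, Apob editing and secretion, 2 had an unadjusted p under 0.05, or 12.5% beside 13.1% of all probe sets. Mia3 encodes TANGO1, a cargo receptor for bulky secretory loads, and read 13.67 ± 0.21 in offspring of UCP1-KO dams and 13.15 ± 0.21 in offspring of WT dams (SD, n = 6 each, log2 difference 0.51, limma adjusted p = 0.136). Cideb, a lipid droplet protein that takes part in loading very low density lipoprotein, read 15.79 ± 0.26 in offspring of UCP1-KO dams and 16.20 ± 0.18 in offspring of WT dams (SD, n = 6 each, log2 difference -0.41, limma adjusted p = 0.226). Sec24a, of the vesicle coat that exports from the endoplasmic reticulum, had -0.32 (-0.20 without UCP1-KO-dam array 11) and A1cf, which targets the editing of Apob transcripts, 0.23. Exact two-sided permutation tests gave unadjusted p = 0.00433 for Mia3, 0.0152 for Cideb, 0.0303 for Sec24a and 0.0411 for A1cf. By that test Mia2 had 0.0390, Aadac 0.0216 and the other genes of this role at least 0.16. The share of all probe sets under 0.05 by that test was not computed.

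Of 12 measured genes for lipases, their inhibitors and plasma remodelling, 4 had an unadjusted p under 0.05, or 33.3% beside 13.1% of all probe sets. They were Lmf1, a maturation factor of lipases, with a log2 difference of -0.84 (limma adjusted p = 0.235), its relative Lmf2 with -0.38, the lipoprotein lipase gene Lpl with 0.38 and the protease gene Furin with -0.28 (adjusted p = 0.323 to 0.358 for these 3). Exact two-sided permutation tests gave unadjusted p = 0.0606 for Lmf1, 0.0519 for Lmf2, 0.0693 for Lpl and 0.0195 for Furin. By that test Furin alone of these 4 was under 0.05. Over single arrays left out Lmf1 ran from -1.05 to -0.62, the latter when WT-dam array 1 was dropped. Without WT-dam arrays 3 to 6 Lpl had 0.10, Lmf1 -1.30 and Lmf2 -0.58. Lpl had 0.24 with the median negative control as a covariate. Of 12 receptor and efflux genes, 1 had an unadjusted p under 0.05 (8.33%), the lipolysis-stimulated receptor gene Lsr with 0.37 (limma adjusted p = 0.281). Abca1, which loads cholesterol onto apolipoprotein A-I, had 0.27, the proteoglycan gene Sdc1 0.31 and the sterol exporter gene Abcg8 0.28. Permutation tests gave unadjusted p = 0.0152 for Lsr, 0.0541 for Abca1, 0.292 for Sdc1 and 0.288 for Abcg8. Without UCP1-KO-dam array 11 Sdc1 had 0.13 and Abcg8 0.17, and Abcg8 had 0.42 without array 12. The part of the endothelial marker differences in these values was not tested.

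Of 17 measured transcription factors and coactivators, 3 had an unadjusted p under 0.05, or 17.6% beside 13.1% of all probe sets. Mlxipl encodes ChREBP, which turns on sugar-responsive genes. It read 14.42 ± 0.27 in offspring of UCP1-KO dams and 15.46 ± 0.61 in offspring of WT dams (SD, n = 6 each). WT-dam arrays 1 and 2, at 14.72 and 14.66, lay inside the UCP1-KO-dam range of 14.15 to 14.88. WT-dam arrays 3 to 6 lay at 15.62 to 16.02. The log2 difference of Mlxipl was -1.04 (limma adjusted p = 0.0891). It was the 1 gene of the pathway that passed under any setting, without WT-dam array 2, the lowest of its group (-1.20, limma adjusted p = 0.0235). Without WT-dam arrays 3 to 6 it was -0.27, and with the covariate -0.65. Nr1h3, the liver X receptor alpha, had -0.42, Foxa2 -0.65 and Srebf2 -0.36 (limma adjusted p = 0.232 to 0.391). Exact two-sided permutation tests gave unadjusted p = 0.00866 for Mlxipl, 0.0195 for Nr1h3, 0.0931 for Foxa2 and 0.0844 for Srebf2. Hnf4a, a main activator of apolipoprotein genes in liver, had -0.11 (95% interval -0.46 to 0.25) and Creb3l3, which activates Apoa4, 0.067. These 2 were singled out after their values were seen.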

How the data were processed

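Each deposited value is a log2 signal of 1 probe set on 1 array. Per the submitters' processing notes, the authors used RMA (robust multi-array averaging) and the Transcriptome Analysis Console. For these tools versions are not given in the sources used here, and neither is a genome build. RMA normalizes arrays to each other, which reduces a shift shared by most genes. The number of arrays, 6 per group, limits the precision.

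The 6640 control rows were left out and 22206 probe sets were tested in R 4.3.3 by limma 3.58.1, using lmFit and eBayes (two-sided) with a single term for the dam's genotype. The script was tested on simulated data. Symbols came from the platform annotation, which gave 19572 probe sets 1 symbol. A gene with several probe sets was represented by the one of highest mean. Exact two-sided permutation tests used the 924 labellings of the arrays. Correlations used 100000 permutations. Motifs were searched in RefSeq promoters of GRCm38.p6.

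The members and lists were chosen with earlier results of these data known. Named were all members and, per role, the 4 pathway genes of smallest p; for likeness, the 3 genes of highest r for each of the 3 members of widest range. Alternatives were normalization, centring, dim-signal and symbol filters, averaging per symbol, variance trend, an unequal-variance test, a negative-control covariate and leaving out arrays.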

Additional observations from a re-analysis of the deposited data

Results flagged for a closer look

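Single livers far from the rest of their group were found in 7 of 56 groups examined (8 genes and 20 named pathway genes, 2 groups each). In each, the gap to the nearest liver, as a share of the group's range, exceeded Dixon's critical value for 6 samples. Among the 8 genes these were Apoc3 on UCP1-KO-dam array 8, at 16.31 with the next at 16.85, Mttp on WT-dam array 6, at 14.26 with the next at 13.98, and Apoe on WT-dam array 3, at 18.92 with the next at 19.22. Among pathway genes they were Lsr on UCP1-KO-dam array 7, at 12.80, Apod on WT-dam array 2, at 5.26, Apon on WT-dam array 6, at 14.25, and Lmf1 on WT-dam array 1, at 12.71. The high values of Angptl8 on UCP1-KO-dam array 9 and WT-dam array 3 were not among them. Chance would give about 2.8 such groups if values were normal and groups independent, but the groups share the same livers. Such groups were not counted over all probe sets, so whether these genes hold more of them than others was not tested.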

How the results depend on the processing

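Under 22 alternatives, 0 of the 8 genes passed in any (adjusted p = 0.337 to 0.996), and at most 1 had an unadjusted p under 0.05. Of 176 values, 3 changed sign: Apoa1 to -0.0086 without WT-dam arrays 3 to 6, and Angptl8 to -0.14 and -0.28 without WT-dam array 5 and UCP1-KO-dam array 9, within a range of -0.28 to 0.78 over single arrays left out. Angptl8 was also 0.80 without WT-dam arrays 3 to 6 and 0.38 with the negative control covariate. Leaving out WT-dam arrays 3 to 6 keeps only arrays 1 and 2 of that group. The count of pathway genes called was 0 to 1 over single arrays left out (1, Mlxipl, without WT-dam array 2) and 0 otherwise. Clu turned to -0.0042 with the negative control covariate and -0.087 without WT-dam arrays 3 to 6. The count of correlated pairs was 1 with arrays centred on their median and 0 under the other settings. The small differences of Apob, Apoa1 and Apoe were 0.039, 0.062 and 0.033 after quantile normalization, and 0.045, 0.050 and 0.030 with the covariate. Without WT-dam arrays 3 to 6 Apod had -0.26, Sec24a -0.19, A1cf 0.37, Lsr 0.19, Sdc1 0.087, Abcg8 0.12 and Srebf2 -0.56. With the covariate Apon had -0.041 and Abcg8 0.11. After quantile normalization Apoh had 0.053, Clu 0.014 and Apod -0.20, and Clu had 0.049 with arrays centred. No paired analysis was possible because the labels number the arrays 1 to 12 with none shared.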
